A study of Mus musculus with 8 samples.

Results

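Transcripts of 9 mouse genes were followed in spheroids of 4T1 cells, a mammary carcinoma line that arose in a BALB/c mouse: 8 genes of the PARP family of ADP-ribosyltransferases, and Dtx3l, the ubiquitin ligase that binds Parp9. They were taken by name from the deposited count table, and all 9 were found among its 41730 rows and passed the filter on low counts. The tested libraries came from cells transduced with a lentivirus for a hairpin RNA against Tlr7 (shTlr7, n = 4), and the control libraries from cells with a lentivirus for a scrambled hairpin (shCtrl, n = 4). Cells of both groups were grown in hanging drops in serum-containing DMEM and harvested as spheroids, and both carried a hairpin vector. Whether replicates were cultured separately is not stated in the labels, and the p-values therefore reflect the spread of these samples alone, which may be technical.

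PARP enzymes cleave NAD and attach its ADP-ribose part to proteins or nucleic acids, as chains or as single units. Parp1, Parp2 and Parp3 are nuclear enzymes that DNA breaks switch on, and Parp1 and Parp2 are expressed in most cells at a steady level. Parp9, Parp10, Parp11, Parp12 and Parp14 are known as interferon-stimulated genes that act in antiviral defence, and Dtx3l is induced together with Parp9. Below, these 6 genes are called the interferon-inducible members and Parp1, Parp2 and Parp3 the DNA-repair members, a division made from this background and not from values measured here.

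The members lie on 6 chromosomes, and 3 of the interferon-inducible ones are neighbours on chromosome 16 (GRCm38.p6). Parp14 occupies 35831892 to 35871518 on the minus strand, Dtx3l 35926515 to 35939027 on the minus strand, and Parp9 35938470 to 35972621 on the plus strand. Parp9 and Dtx3l are transcribed away from each other and their annotated spans share 558 bases at the 5′ ends. In the GENCODE M21 gene models the exons that they share make up 9.4% of Parp9 and 8% of Dtx3l. Whether counting used the strand is not given in the sources used here, and reads from the shared bases cannot be assigned to either gene.

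Promoter windows from 250 bases before to 50 bases after a RefSeq start (GRCm38.p6) were held for 6 of the 9 members, as 7 windows. Parp9, Parp10 and Parp14 were not among them. Each window was searched on both strands for GAAA followed by any 2 bases and a second GAAA, the core of the interferon-stimulated response element through which type I interferons act on their target genes, and for TTCNNNGAA, the gamma-activated sequence of genes that respond to interferon gamma. The first of the 2 Parp11 windows held a match to each, and the other 6 windows held neither. Of all 32851 promoter windows in the table, 3.44% held the response element core and 8.30% the gamma-activated sequence. The Parp11 window is shown because it holds these matches, in capitals, where TTTCGATTTC is the response element core read on the opposite strand and TTCTTGGAA overlaps its end. The Dtx3l window is shown because it lies wholly inside the annotated span of Parp9, and the Parp3 window because Parp3 is the DNA-repair member whose transcripts changed.
Parp11, chr6:127446590-127446889, plus strand: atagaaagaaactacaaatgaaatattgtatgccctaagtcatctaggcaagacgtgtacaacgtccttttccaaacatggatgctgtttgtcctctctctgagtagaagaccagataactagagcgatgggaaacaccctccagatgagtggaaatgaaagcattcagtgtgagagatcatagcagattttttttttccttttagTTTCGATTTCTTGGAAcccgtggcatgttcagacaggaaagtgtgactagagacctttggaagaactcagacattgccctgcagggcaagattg
Dtx3l, chr16:35938978-35939277, minus strand: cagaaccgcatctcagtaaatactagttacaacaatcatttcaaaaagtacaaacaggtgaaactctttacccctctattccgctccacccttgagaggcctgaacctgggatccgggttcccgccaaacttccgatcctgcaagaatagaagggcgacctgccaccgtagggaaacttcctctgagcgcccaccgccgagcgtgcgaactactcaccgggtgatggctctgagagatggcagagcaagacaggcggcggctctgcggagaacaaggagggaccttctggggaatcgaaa
Parp3, chr9:106476900-106477199, minus strand: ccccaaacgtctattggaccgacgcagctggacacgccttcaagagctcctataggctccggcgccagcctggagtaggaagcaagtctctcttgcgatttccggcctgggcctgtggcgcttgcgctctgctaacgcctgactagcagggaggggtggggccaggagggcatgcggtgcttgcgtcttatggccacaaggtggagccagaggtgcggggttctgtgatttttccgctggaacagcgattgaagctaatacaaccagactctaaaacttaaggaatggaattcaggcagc
The GC content of the 3 windows was 42%, 54.3% and 57.7%, against a median of 52.7% over all windows. The Parp11 window held 5 CpG dinucleotides, the Dtx3l window 17 and the Parp3 window 16, against a median of 7. The second Parp11 window, at chr6:127453377-127453676, held 25. The counts per gene do not tell which Parp11 start was used.

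Libraries held 18.1 to 93.8 M counts each, and their biological coefficient of variation within groups was 6.76%. Levels are given as CPM, the counts of a gene scaled to the TMM-corrected library size. Tlr7 had 0, 4, 3 and 0 counts in shTlr7 replicates 1 to 4, against 2, 3, 2 and 2 counts in shCtrl replicates 1 to 4. Its RNA was thus barely detected in the controls as well, and a lower Tlr7 RNA level could not be shown. Of 5 epithelial markers, all tested, 2 were called higher and 3 lower in shTlr7. Epcam averaged 780 CPM in shTlr7 and 705 CPM in shCtrl, and Cdh1 506 CPM in shTlr7 and 440 CPM in shCtrl. The keratins were lower, Krt8 with 892 CPM in shTlr7 and 1150 CPM in shCtrl, Krt18 with 1020 CPM in shTlr7 and 1410 CPM in shCtrl, and Krt14 with 3.26 CPM in shTlr7 and 36.2 CPM in shCtrl. The summed level of 5 leukocyte markers lay between 0.429 and 0.799 CPM in shTlr7 and between 1.12 and 1.51 CPM in shCtrl, with Adgre1 at 0 in every library. Csf1r made up most of the shCtrl sum, with a mean of 0.241 CPM in shTlr7 and 1.14 CPM in shCtrl, while Itgam averaged 0.189 CPM in shTlr7 and 0.00506 CPM in shCtrl and Ptprc 0.179 CPM in shTlr7 and 0.135 CPM in shCtrl. That of 4 endothelial markers lay between 0.399 and 0.643 CPM in shTlr7 and between 0.221 and 0.377 CPM in shCtrl. That of 4 fibroblast markers lay between 43.1 and 48.0 CPM in shTlr7 and between 43.7 and 45.2 CPM in shCtrl and was nearly all Pdgfra, while Dcn and Lum averaged at most 0.0618 CPM. The part of such cells in the members' differences was not tested. The libraries numbered 4 differed more from the others of their group than these did among themselves. The chi-square per degree of freedom was 10.6 to 20.2 for pairs that include them and 2.14 to 9.40 for the other pairs. This value also grows with the depth of the libraries compared, for which no correction was made.

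Transcripts of all 6 interferon-inducible members were higher in shTlr7 spheroids, by 1.36-fold for Dtx3l to 2.17-fold for Parp14. Of the DNA-repair members, Parp3 rose 1.56-fold, whereas Parp1 and Parp2 had folds of 0.947 and 0.951 and did not pass the test. These counts stand against a broad difference between the groups. Of 13393 genes tested, 56.1% were called at an adjusted p under 0.05 in edgeR's quasi-likelihood test (Benjamini-Hochberg), 29.3% as higher and 26.8% as lower in shTlr7. The interferon-inducible members had a median log2 fold change of 0.65, with 6 of 6 called higher. The DNA-repair members had a median of -0.07, with 1 of 3 called higher and 0 called lower. Over all tested genes the median was 0.01. For the 7 called members the groups did not overlap in CPM, with shTlr7 above. Over all tested genes they did not overlap in 49.8%, with shTlr7 above in 26.0% and below in 23.8%. Without both libraries numbered 4, the 6 interferon-inducible members and Parp3 were again called higher, and Parp1 and Parp2 were called lower. In bulk RNA a change in the level per cell and a change in the share of cells that express a gene cannot be told apart.

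**Figure D1:**
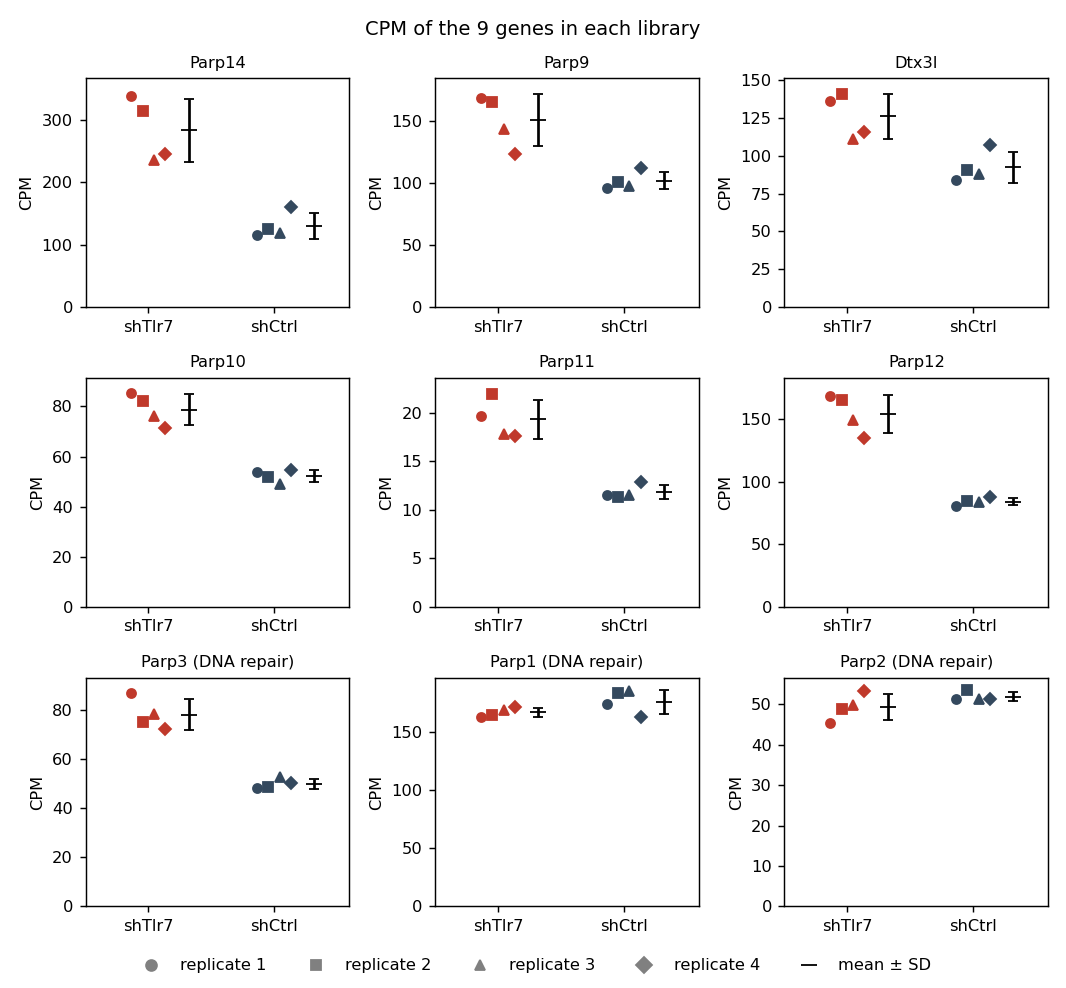
CPM (TMM-scaled, linear axis from 0) of the 9 genes, with 1 symbol per library, shTlr7 at the left and shCtrl at the right of each panel, and the mean ± SD (n = 4) beside them. All 4 shTlr7 libraries lie above all 4 shCtrl libraries for the 6 interferon-inducible members and for Parp3, and the groups overlap for Parp1 and Parp2.

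Parp14 showed the largest change of the 9. It encodes a large cytoplasmic mono-ADP-ribosyltransferase with macrodomains, which bind ADP-ribose, and was first described in mouse as a coactivator of STAT6. Its level was 338, 315, 236 and 246 CPM in shTlr7 replicates 1 to 4, against 116, 126, 119 and 161 CPM in shCtrl replicates 1 to 4. The lowest shTlr7 library was thus well above the highest shCtrl library. The mean was 284 ± 50.4 CPM in shTlr7 and 130 ± 21.0 CPM in shCtrl (SD, n = 4 each), a log2 fold change of 1.12 ± 0.16 (SE) (edgeR adjusted p = 0.000588). A total of 97.4% of tested genes had a lower log2 fold change. Parp14 was also the member with the largest spread, with coefficients of variation of 17.7% in shTlr7 and 16.2% in shCtrl. Its log2 fold change was 1.29 without both libraries numbered 4.

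Parp9 and Dtx3l form a complex in which Dtx3l supplies the ubiquitin ligase activity, and the pair is known to enhance the expression of interferon-stimulated genes. Parp9 had 169, 166, 144 and 124 CPM in shTlr7 replicates 1 to 4, against 96.0, 101, 98 and 112 CPM in shCtrl replicates 1 to 4. The closest libraries of the 2 groups were those numbered 4. The log2 fold change was 0.57 ± 0.09 (SE; edgeR adjusted p = 0.000475). Dtx3l had 136, 141, 111 and 116 CPM in shTlr7, against 83.9, 90.4, 88.2 and 107 CPM in shCtrl, in the same order of replicates. Its groups came closest of the 7 called members, shTlr7 replicate 3 lying just above shCtrl replicate 4. The log2 fold change of Dtx3l was 0.45 ± 0.09 (SE; edgeR adjusted p = 0.00222).

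The balance of the 2 partners was compared within each library, as the log2 CPM of Parp9 less that of Dtx3l. This ratio averaged 0.26 ± 0.12 in shTlr7 and 0.14 ± 0.06 in shCtrl (SD, n = 4 each), a difference of 0.12 with an exact two-sided permutation adjusted p of 0.171. A change in the balance was therefore not shown, although without shTlr7 replicate 4 the difference was 0.17 with an exact permutation adjusted p of 0.0286. Parp14 rose more than its neighbour Parp9. The log2 ratio of Parp14 to Parp9 averaged 0.90 ± 0.13 in shTlr7 and 0.35 ± 0.12 in shCtrl, a difference of 0.56 (exact two-sided permutation, n = 4 each, p = 0.0286 and adjusted p = 0.0429 over 3 pairs). The log2 ratio of Parp9 to Parp1 averaged -0.16 ± 0.24 in shTlr7 and -0.80 ± 0.17 in shCtrl, a difference of 0.64 with the same exact permutation p and adjusted p. The smallest p that 4 libraries against 4 can give is 0.0286. Both differences were of the same sign without each library in turn, while their adjusted p passed the threshold in 3 of the 8 cases.

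Parp12 and Parp10 rose with less spread. Parp12, whose zinc fingers of the CCCH type bind RNA and which restrains virus replication, had 168, 165, 149 and 135 CPM in shTlr7 replicates 1 to 4, against 80.1, 84.5, 83.8 and 87.5 CPM in shCtrl replicates 1 to 4. Every shTlr7 library was well above the highest shCtrl library. Its log2 fold change of 0.88 ± 0.06 (SE) had the lowest edgeR adjusted p of the 9 genes, 1.63e-07. Parp10, a mono-ADP-ribosyltransferase with RNA recognition and ubiquitin-binding motifs, had 85.2, 82.3, 76.1 and 71.3 CPM in shTlr7, against 53.7, 51.7, 49.1 and 54.5 CPM in shCtrl. The groups were separated by more than their whole ranges. The log2 fold change was 0.59 ± 0.06 (SE; edgeR adjusted p = 1.94e-06). Exons of Plec on the same strand cover 4.8% of the Parp10 exons.

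Parp11, which carries a WWE domain and mono-ADP-ribosylates its targets, was the least abundant member. It had 19.7, 21.9, 17.8 and 17.6 CPM in shTlr7 replicates 1 to 4, against 11.5, 11.3, 11.5 and 12.9 CPM in shCtrl replicates 1 to 4. These values rest on 213 to 2124 reads per library, and the groups did not overlap. The log2 fold change was 0.72 ± 0.08 (SE; edgeR adjusted p = 8.86e-06). This is the gene whose upstream window, shown above, holds the response element core. Dtx3l and Parp12 rose as well, and no match was found in the single window searched for each.

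Among the DNA-repair members, Parp3 was called and Parp1 and Parp2 were not. Parp3, which acts in the repair of double-strand breaks, had 87.0, 75.2, 78.4 and 72.6 CPM in shTlr7 replicates 1 to 4, against 48.4, 48.8, 52.8 and 50.5 CPM in shCtrl replicates 1 to 4. All shTlr7 libraries exceeded all shCtrl libraries. Its log2 fold change of 0.64 ± 0.06 (SE, edgeR adjusted p = 7.79e-07) lay between those of Parp10 and Parp11, although it was placed among the DNA-repair members. Only 20 exon bases of Parp3 are shared with a gene on the other strand, Rrp9.

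Parp1, the main source of ADP-ribose chains at DNA breaks, had 163, 165, 169 and 172 CPM in shTlr7 replicates 1 to 4, against 174, 184, 185 and 163 CPM in shCtrl replicates 1 to 4. The 3 highest libraries were shCtrl libraries, and shCtrl replicate 4 was at the level of the shTlr7 group. The fold was 0.947 with an approximate 95% interval of 0.891 to 1.01, and the edgeR adjusted p was 0.157. Parp2, its close relative with a shorter regulatory part, had 45.3, 48.8, 49.8 and 53.3 CPM in shTlr7, against 51.3, 53.5, 51.4 and 51.3 CPM in shCtrl. Replicates 1 to 3 of shTlr7 lay below every shCtrl library, and replicate 4 of shTlr7 above 3 of them. The fold was 0.951 with an interval of 0.886 to 1.02, and the edgeR adjusted p was 0.255. Without both libraries numbered 4, the log2 fold changes were -0.14 for Parp1 and -0.12 for Parp2, with edgeR adjusted p of 0.00483 and 0.0402. Without shCtrl replicate 4 alone, Parp1 was called lower at -0.12 (edgeR adjusted p = 0.0154). With scaling by library size only, which moved the median of all genes from 0.01 to 0.12, the log2 fold changes were 0.025 for Parp1 and 0.031 for Parp2 and neither was called.

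**Figure D2:**
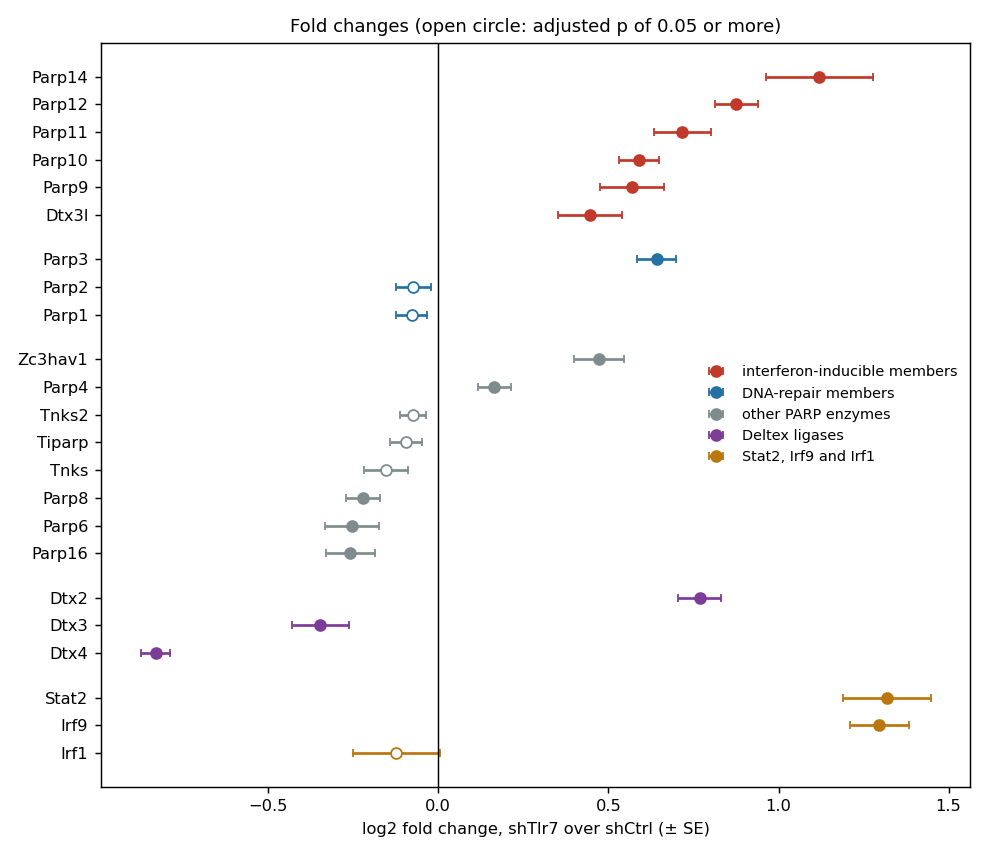
Log2 fold changes of shTlr7 over shCtrl with their standard errors for the 9 members, 8 other PARP enzymes, 3 Deltex ligases, and Stat2, Irf9 and Irf1. Filled circles have an adjusted p under 0.05. The members range from -0.08 for Parp1 to 1.12 for Parp14, and Stat2 and Irf9 lie to the right of all of them.

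Within each group, the interferon-inducible members tended to be highest in the same libraries, though their full orders of libraries differed. In shTlr7, replicate 1 was highest for 4 of them and replicate 2 for the other 2, while replicate 4 was lowest for 4 and replicate 3 for 2. In shCtrl, replicate 4 was highest for all 6, while replicate 1 was lowest for 4 and replicates 2 and 3 for 1 each. The share of all tested genes with the same highest library is not given here. Of the other PARP enzymes, shCtrl replicate 4 was also the highest shCtrl library for Parp6, Parp8 and Parp16, which were lower in shTlr7. It was not the highest for Parp4, Tiparp, Zc3hav1, Tnks and Tnks2. The mean deviation of the 6 genes from their group mean, in log2 CPM, was 0.14, 0.14, -0.11 and -0.17 in shTlr7 replicates 1 to 4, and -0.07, -0.02, -0.06 and 0.16 in shCtrl replicates 1 to 4. For the DNA-repair members the same quantity stayed between -0.04 and 0.05 in all 8 libraries, where single members deviated in opposite directions. In shTlr7, Parp3 deviated by 0.155 in replicate 1 and -0.105 in replicate 4, and Parp2 by -0.12 in replicate 1 and 0.115 in replicate 4. In shCtrl, Parp1 deviated by -0.112 in replicate 4. In the fit without both libraries numbered 4, the 6 interferon-inducible members had log2 fold changes of 0.55 to 1.29.

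**Figure D3:**
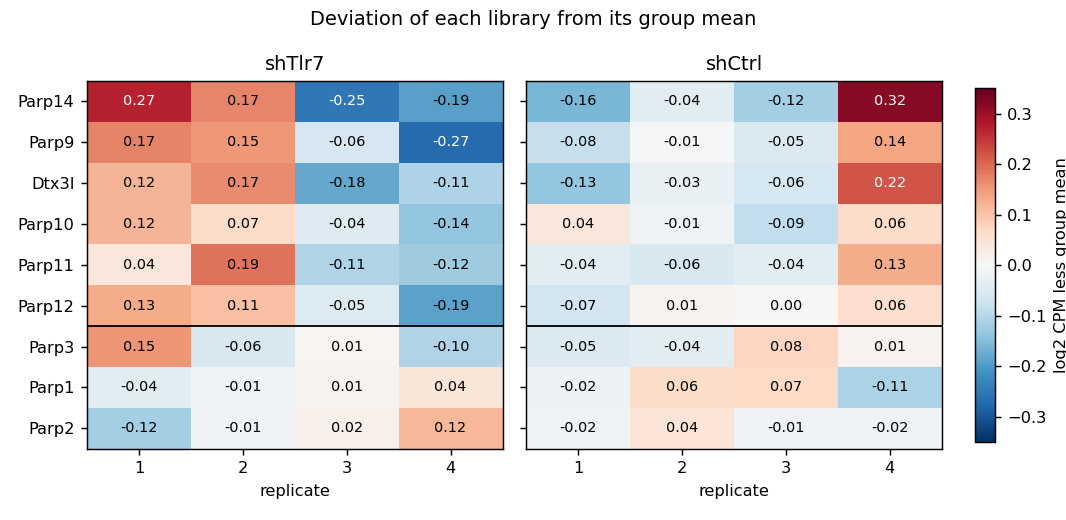
Deviation of each library's log2 CPM from the mean of its group, for the 9 genes (rows; DNA-repair members under the line) in shTlr7 and shCtrl replicates 1 to 4 (columns). In shCtrl the deviations of the 6 interferon-inducible members in replicate 4 are all positive, from 0.06 to 0.32, and in shTlr7 they are positive in replicates 1 and 2 and negative in replicates 3 and 4.

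Levels were compared between genes as CPM per kilobase of exon, over the union of all annotated exons of a gene. In shTlr7 the order of the mean levels per kilobase was Parp12 at 38.6, Parp1 at 31.6, Parp9 at 31.0, Parp14 at 30.5, Dtx3l at 22.0, Parp3 at 21.2, Parp10 at 18.4, Parp2 at 13.6 and Parp11 at 2.74. The ranges of Parp1, Parp9 and Parp14 overlapped, as did those of Dtx3l, Parp3 and Parp10, each with its next neighbour. The range of Parp12, 33.8 to 42.0, lay above that of Parp1 but overlapped those of Parp9, 25.5 to 34.7, and Parp14, 25.3 to 36.3. In shCtrl the order was Parp1 at 33.3, Parp12 at 21.0, Parp9 at 20.9, Dtx3l at 16.2, Parp2 at 14.3, Parp14 at 14.0, Parp3 at 13.5, Parp10 at 12.2 and Parp11 at 1.68. There the ranges of Parp12 and Parp9 overlapped, each of Dtx3l, Parp2 and Parp14 overlapped with the next, and that of Parp14 also with those of Dtx3l and Parp10. Parp1 thus had the highest level in shCtrl, above the range of every other member, while Parp12 had the highest mean in shTlr7, with the overlaps given. A union of exons counts every annotated isoform in full.

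**Figure D4:**
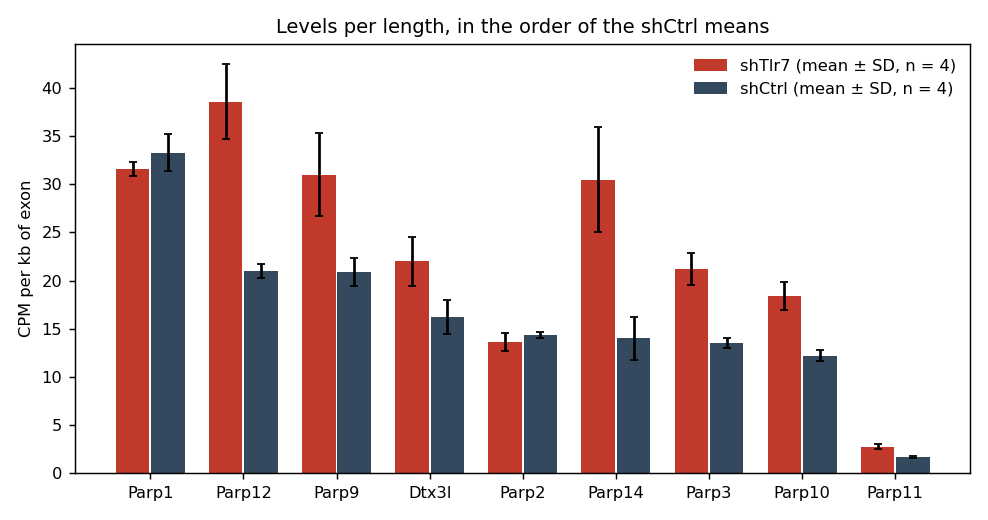
Mean CPM per kilobase of exon (bars, ± SD, n = 4) of the 9 genes in shTlr7 and shCtrl, in the order of the shCtrl means. Parp14 has 30.5 in shTlr7 and 14.0 in shCtrl, Parp1 has 31.6 in shTlr7 and 33.3 in shCtrl, and Parp11 is the lowest in both groups.

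The remaining PARP enzymes differed in both directions. Of 8 tested, 2 were called higher and 3 lower, with a median log2 fold change of -0.12, and the share called was close to the 56.1% of all genes. Zc3hav1, the catalytically inactive zinc finger antiviral protein PARP13 and itself interferon-inducible, had 241 ± 29.4 CPM in shTlr7 and 173 ± 4.40 CPM in shCtrl (SD, n = 4 each), a log2 fold change of 0.47 (edgeR adjusted p = 0.000188). Parp4, the vault particle PARP, had a log2 fold change of 0.17 (edgeR adjusted p = 0.0106). Parp8 at -0.22, Parp6 at -0.25 and the endoplasmic reticulum enzyme Parp16 at -0.26 were called lower. With scaling by library size only, none of these 3 was called, and their log2 fold changes were -0.12, -0.15 and -0.16. Tiparp, a target of the aryl hydrocarbon receptor, at -0.10 and the tankyrases Tnks at -0.15 and Tnks2 at -0.07 did not pass the test, though Tnks did with RLE scaling and without both libraries numbered 4.

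Relatives of Dtx3l in the Deltex ligase family differed in direction. Of 3 tested, Dtx2 was called higher and Dtx3 and Dtx4 lower, while Dtx1 had too few counts to be tested. Among all tested genes, 56.1% were called, 29.3% higher and 26.8% lower. Dtx2 had 34.4 ± 2.14 CPM in shTlr7 and 20.1 ± 1.16 CPM in shCtrl (log2 fold change 0.77, edgeR adjusted p = 3.32e-07). Dtx4 had 46.0 ± 1.74 CPM in shTlr7 and 81.8 ± 1.46 CPM in shCtrl (log2 fold change -0.83, edgeR adjusted p = 5.48e-09). Dtx3 had a log2 fold change of -0.35 (edgeR adjusted p = 0.00456). These 3 calls were the same with RLE scaling, with library size only and without both libraries numbered 4.

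Stat2 and Irf9 encode proteins that carry the type I interferon signal to the response element. They were 2.49-fold and 2.46-fold higher in shTlr7 (edgeR adjusted p = 3.94e-05 and 2.85e-07), above the 2.17-fold of Parp14. A test of these differences from Parp14 was not made. Irf1, a factor that binds related sites and responds mostly to interferon gamma, had 165 ± 11.7 CPM in shTlr7 and 180 ± 36 CPM in shCtrl and did not pass the test (-0.12, edgeR adjusted p = 0.448).

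Enzymes that remove or cleave ADP-ribose were called in 7 of 8 tested cases, 5 higher and 2 lower, with a median log2 fold change of 0.18. Of all tested genes, 56.1% were called, 29.3% as higher and 26.8% as lower. Adprhl1, Oard1 and Nudt16 did not pass the filter. The 2 falls were the largest changes of the list. Enpp1, a membrane phosphodiesterase that hydrolyses ATP and cyclic GMP-AMP, had 12.5 ± 1.17 CPM in shTlr7 and 28.8 ± 3.19 CPM in shCtrl (log2 fold change -1.20, edgeR adjusted p = 9.66e-08). Nudt9, a mitochondrial ADP-ribose pyrophosphatase, had 61.2 ± 2.58 CPM in shTlr7 and 112 ± 9.91 CPM in shCtrl (-0.87, edgeR adjusted p = 6.46e-08). The macrodomain hydrolases Macrod2 and Macrod1 rose, with log2 fold changes of 0.79 and 0.36 (edgeR adjusted p = 8.02e-05 and 0.000524). Parg, which degrades the ADP-ribose chains made by Parp1 and was chosen after its values were seen, was at 0.08 (edgeR adjusted p = 0.163) and was called higher only with library size scaling, among the 3 settings checked for this list. Those settings were RLE scaling, library size only and leaving out both libraries numbered 4. The call of Adprhl2, a hydrolase that removes ADP-ribose from serine, at 0.145 (edgeR adjusted p = 0.0432) and chosen in the same way, was lost with RLE scaling (adjusted p = 0.0623) and without both libraries numbered 4 (adjusted p = 0.247), which left 4 of the list called higher.

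Genes of a list linked to Parp1 in break repair went both ways, 3 higher and 4 lower of 12 tested. Their median log2 fold change was -0.03. The share called, 7 of 12, was close to the 56.1% of all genes. Timeless, which binds Parp1 and the replication fork, had 34.9 ± 2.76 CPM in shTlr7 and 56.4 ± 4.01 CPM in shCtrl (log2 fold change -0.69, edgeR adjusted p = 1.24e-06). Polb, the gap-filling polymerase, rose by 0.41, and the flap endonuclease Fen1 by 0.25 (edgeR adjusted p = 7.82e-05 and 0.00352). Macroh2a1, a histone variant whose macrodomain binds ADP-ribose, fell by 0.26 on the log2 scale (log2 fold change -0.26, edgeR adjusted p = 0.000122). Hpf1, the cofactor that directs Parp1 and Parp2 to serine and chosen after its values were seen, had a log2 fold change of -0.20 (edgeR adjusted p = 0.0088) and was not called with library size scaling (-0.10). The scaffold Xrcc1 and the ligase Lig3, chosen in the same way, did not pass the test, at 0.07 and -0.04.

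The genes whose pattern over the 8 libraries was nearest to that of Parp9 were Trim21, Tmem229b, Tlr3, Ly6e and Mid2. Nearness was the root-mean-square difference of log2 CPM, each gene centred on its own mean, and came to 0.05 for Trim21, the cytosolic antibody receptor, 0.07 for Tmem229b, 0.08 for Tlr3, the endosomal receptor for double-stranded RNA, 0.08 for Ly6e and 0.08 for Mid2. All 5 were called higher, with log2 fold changes of 0.56, 0.56, 0.67, 0.63 and 0.49 in that order. Nearness includes the difference between the groups, so these calls follow from the choice of the genes and are no separate result. Among the members, Parp10 was nearest to Parp9 at 0.08, with 5 of 10517 compared genes nearer. Dtx3l followed at 0.10 with 31 genes nearer, Parp11 at 0.10 with 36, Parp3 at 0.12 with 107 and Parp12 at 0.16 with 575. Parp14 was at 0.30, with 4330 genes nearer, and Parp1 and Parp2 at 0.37. This measure depends on the size of the change as well as on its shape over libraries.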

How the data were processed

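RNA of 8 libraries of 4T1 spheroids was extracted (Norgen) and prepared for sequencing (Illumina TruSeq), per the labels' protocols. The authors deposited whole-number, unnormalized read counts per gene symbol and library. DESeq2 1.32.0, STAR 2.7.5 and the build GRCm38 are listed, without roles, per the submitters' processing notes. How reads were counted, on which strand and over which annotation is not given in the sources used here. Groups and replicate numbers came from the sample titles.

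The analysis used edgeR 4.0.16 in R 4.3.3. Its filterByExpr kept 13393 of 41730 rows, TMM scaled them, and a robust quasi-likelihood fit with group as the only term gave Benjamini-Hochberg adjusted p-values over all genes tested, called under 0.05. Standard errors are the log2 fold change over the square root of F, and approximate 95% intervals use the normal quantile. CPM use TMM-scaled library sizes, and log2 CPM a prior count of 2. Ratios between 3 pairs of members were compared by exact permutation of libraries.

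Members, lists and tests were chosen with earlier results of these data known. Named genes are the members, every tested gene of the lists of other PARP enzymes and of interferon-signalling factors, the 4 genes with the lowest p of each further list, and the 5 genes nearest to Parp9 whose average log2 CPM is 1 or more. Other genes are said to be chosen after their values were seen. Alternatives were library size only, RLE scaling, limma-voom with quality weights per library (limma 3.58.1) and DESeq2 1.42.0. Further alternatives were no filter, at least 1 CPM in 4 libraries, adjusted p under 0.01, a replicate block, and leaving out libraries. Gene models came from GENCODE M21 (GRCm38), and promoters and gene spans from RefSeq (GRCm38.p6). Some listed genes are not reported here. No pair of libraries of a group agreed within sampling noise.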

Additional observations from a re-analysis of the deposited data

Results flagged for a closer look

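Of 18 groups of 4 libraries (9 members in shTlr7 and in shCtrl), 2 held a library far from the others, where chance flags about 1 group in 20. Parp11 in shCtrl replicate 4 had 12.9 CPM, against 11.3 to 11.5 CPM in the other shCtrl libraries, and this library was also the highest of shCtrl for the other interferon-inducible members. Without it Parp11 was called higher in shTlr7 as before. Parp2 in shCtrl replicate 2 had 53.5 CPM, against 51.3 to 51.4 CPM in the other shCtrl libraries.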

How the results depend on the processing

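The 6 interferon-inducible members and Parp3 were called higher in shTlr7 under each of 16 alternatives for which a fold change was computed, with log2 fold changes of 0.39 to 0.55 for Dtx3l, 0.52 to 0.69 for Parp9 and 1.03 to 1.29 for Parp14, and the highest adjusted p, 0.025, for Dtx3l. Counts over all genes stayed within 1.5 times the reported 3927 higher and 3590 lower, but library size only changed the split to 5513 and 2491. Under that scaling Parp1 and Parp2 turned to 0.025 and 0.031, while the median of all genes moved from 0.01 to 0.12. The number of DNA-repair members called, 1 in the reported fit, was 2 with limma-voom with quality weights per library. It was 3 without both libraries numbered 4, and 1 to 2 when a single library was left out. The cause of these differences was not tested. The difference between Parp14 and Parp9 was 0.589 and that between Parp9 and Parp1 0.824 without both libraries numbered 4 (exact permutation adjusted p = 0.1, where 3 against 3 libraries allow no lower p). Leaving out a single library gave 0.524 to 0.618 for Parp14 less Parp9, 0.567 to 0.742 for Parp9 less Parp1 and 0.077 to 0.17 for Parp9 less Dtx3l. Same-numbered libraries were not taken as pairs in the reported fit. The correlation of their deviations was -0.007, 0.114, 0.118 and 0.38 for numbers 1 to 4. The best match was shCtrl replicate 4 for shTlr7 replicate 4, and shCtrl replicate 2 for shTlr7 replicates 1 to 3. Whether libraries of the same number, such as those numbered 4, share a source was not tested. With the replicate number as a block, 4334 genes were higher and 4005 lower, no call of a member changed, and the paired exact test gave 0.555 for Parp14 less Parp9 and 0.638 for Parp9 less Parp1, with an adjusted p of 0.125, the lowest that 4 pairs allow. Parp11 rests on the fewest reads of the 9 genes.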

Other observations

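The genes beside Parp14, Dtx3l and Parp9 on chromosome 16 were looked up by position after the members' values were seen. Hspbap1, whose end lies 3430 bases from Parp14, had 12.1 ± 0.98 CPM in shTlr7 and 8.02 ± 0.72 CPM in shCtrl (SD, n = 4 each), a log2 fold change of 0.58 (edgeR adjusted p = 0.000109). Kpna1, an importin that starts 10667 bases beyond Parp9, had 94.0 ± 7.62 CPM in shTlr7 and 71.8 ± 4.24 CPM in shCtrl (0.39, edgeR adjusted p = 0.000129). Slc49a4, beyond Hspbap1, had a log2 fold change of 0.29 (edgeR adjusted p = 0.00045). Fam162a, further out on the other side, was lower in shTlr7, at -0.37 (edgeR adjusted p = 0.000577). Ccdc58, beyond Fam162a, was called lower at -0.14 (edgeR adjusted p = 0.0498). Wdr5b, between Kpna1 and Fam162a, was at 0.24 and did not pass the test (edgeR adjusted p = 0.158). The long noncoding RNA Gm15564, whose span overlaps the end of Parp9, had 172 ± 36.2 CPM in shTlr7 and 190 ± 29.8 CPM in shCtrl and did not pass the test (-0.14, edgeR adjusted p = 0.533). The rise of Hspbap1, Kpna1 and Slc49a4 and the fall of Fam162a were also called with library size scaling and without both libraries numbered 4. With library size scaling, Ccdc58 was not called (-0.04, edgeR adjusted p = 0.594) and Wdr5b was called higher (0.34, edgeR adjusted p = 0.0442). Tested neighbours thus went both ways, where 29.3% of all tested genes were called higher and 26.8% lower.

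NAD, the substrate of the PARP enzymes, is made and used by genes that were called in both directions. Of 14 tested, 5 were called higher and 5 lower, with a median log2 fold change of 0.07, where 29.3% of all tested genes were called higher and 26.8% lower. Nmnat2, an adenylyltransferase of NAD synthesis, had 47.4 ± 2.42 CPM in shTlr7 and 96.7 ± 6.98 CPM in shCtrl (-1.03, edgeR adjusted p = 9.72e-09). Its mitochondrial relative Nmnat3 was at -0.89 (edgeR adjusted p = 9.7e-05). Cd38, an NAD-consuming surface enzyme, was at -0.83 (edgeR adjusted p = 5.8e-05), and the NAD kinase Nadk at 0.34 (edgeR adjusted p = 4.82e-05). Nampt, the enzyme that limits NAD salvage and was chosen after its values were seen, had 177 ± 15.2 CPM in shTlr7 and 178 ± 11.6 CPM in shCtrl.

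Of 4 cofactors or relatives of the Zc3hav1 pathway, Trim25 was called higher, Zc3h12a and N4bp1 lower, and Khnyn was not called. Among all tested genes, 56.1% were called, 29.3% higher and 26.8% lower. Zc3h12a, an RNA-degrading nuclease, had 23.9 ± 1.44 CPM in shTlr7 and 65.0 ± 2.77 CPM in shCtrl (-1.45, edgeR adjusted p = 2.37e-10). Trim25, a ubiquitin ligase that Zc3hav1 needs, was at 0.86 (edgeR adjusted p = 3.76e-07), but a further copy of the gene in the count table holds 16755 counts against 10712 in its own row, so its fold change is uncertain. N4bp1, at -0.15, was not called with library size scaling (-0.04). Khnyn was called higher without both libraries numbered 4 (0.14, edgeR adjusted p = 0.0168).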
